A study of Homo sapiens with 46 samples.

Results

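The transcripts described here are 19 well-measured transcripts whose annotated products are very short, of 63691 transcript rows in the deposited tables. A row was taken when its length value was at most 51, which corresponds to about 70 residues if the value is read as residues less 19, and when its mean mRNA level over the 23 mRNA libraries was at least 20 CPM, the count scaled to the sum of its file. Of 334 rows within the length limit, 22 passed the level limit and 80 had 0 counts in every library. Adjacent passing rows formed 3 runs of 2 rows, and the row with the higher total stood for its run. The members were thus chosen by their mRNA level and length, which are given only as a description. Changes in mRNA, in footprints and in their ratio did not enter the rule directly. A mean over all stages can still favour a change in mRNA, and so in the ratio, in members near the level limit. These members are given below.

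Cells of H1, a widely used established line of human embryonic stem cells, were followed through neural conversion. Undifferentiated cells (hES) were grown without feeder cells in mTESR1, and conversion took place in a medium named NIM for 1, 3 or 6 days (ND1, ND3 and ND6). All cells had received a lentiviral short hairpin RNA, either a control (shControl), one against KBTBD8 (shKBTBD8) or one against TCOF1 (shTCOF1). KBTBD8 is a protein that brings substrates to the ubiquitin ligase CUL3, and treacle, the product of TCOF1, acts in the nucleolus. In the first set of libraries shControl and shKBTBD8 were sampled at all 4 stages, with 2 numbered replicates for each group and assay. The second set held 2 shControl libraries at hES and 1 library for each other combination of hES or ND3 with shControl, shKBTBD8 or shTCOF1, again for both assays. The sets are told apart here by how their titles are written. No label states that replicates were separate cultures, and p-values therefore cover the spread of these libraries alone, which may be technical. No group is described as clonal or pooled.

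Ribosome footprints are the stretches of mRNA that ribosomes protect when RNase I digests the rest, and footprints relative to mRNA give a measure of how heavily a transcript is occupied by ribosomes, often called translational efficiency (TE). Very short proteins in animal cells include subunits of the ribosome and of the respiratory chain, small components of the secretory membrane, thymosins and metallothioneins. A short reading frame holds few ribosomes at a time, and the ribosomes at its start and stop codons make up a larger share of its footprints than in a long one.

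The deposited tables give transcript identifiers without gene names, and 0 of the 19 matched the gene tables used here. No gene name or role is therefore given, and the members are called transcripts 1 to 19 in descending order of mean mRNA level. The levels of KBTBD8 and TCOF1 and the markers of undifferentiated or neural cells were likewise not analysed here. Transcript 1 averaged 289 CPM of the file sum and had a length value of 51, and transcript 19 averaged 20.4 CPM with the same length value. The smallest length value was 25, in transcripts 2 and 7. Just inside the level limit lay transcripts at 20.4, 20.5 and 24.5 CPM, and just outside it lay rows at 19.3, 19.3 and 17.7 CPM. Rows with a length value of 52 that passed the level limit lay at 60.0 and 37.8 CPM, and one with a length value of 53 lay at 290.1 CPM.

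For all later values, rows of neighbouring isoforms that held the same reads were reduced to 1 row each, which left 17680 rows. Depth on these rows was 16.3 to 27.1 M counts in mRNA libraries and 1.03 to 10.2 M in footprint libraries of the first set. Second-set libraries held 11.3 to 29.2 M (mRNA) or 4.07 to 7.93 M (footprints). The 19 transcripts together took 0.289% to 0.384% of the mRNA counts and 0.251% to 0.555% of the footprint counts in the first set. All 19 passed the filter on low counts in every comparison, and the lowest count of any of them in any library was 16, for footprints of transcript 17. Of the 19, 16 shared reads with no other row by the rule used here, and transcript 10 shared reads with a row of length value 68. Transcripts 9 and 12 lay 5 rows apart and their log2 counts over the 46 libraries had a Pearson correlation of 0.996, so their values are not independent. Transcripts 3 and 19 lay 4 rows apart, with a correlation of 0.934. Whether near-identical gene copies or antisense transcripts contribute reads was not tested.

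All 19 transcripts carried footprints in every library. In undifferentiated control cells of the first set, the log2 ratio of footprint CPM to mRNA CPM had a median over the 19 of 0.34 in replicate 1 and 0.01 in replicate 2. The ratio ranged from -0.45 to 1.64 in replicate 1 and from -1.01 to 2.09 in replicate 2. Single members also differed between the replicates, as transcript 10 did with 0.91 and 0.01. Medians over all 17680 rows were 0.02 and -0.06. Transcripts with length values of 52 to 100 over the same level limit (150 rows) had higher medians than the 19, at 0.60 and 0.65. Longer transcripts (4414 rows) had medians of 0.01 and -0.01. The ratios have no test, since length was part of the rule.

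**Figure D1:**
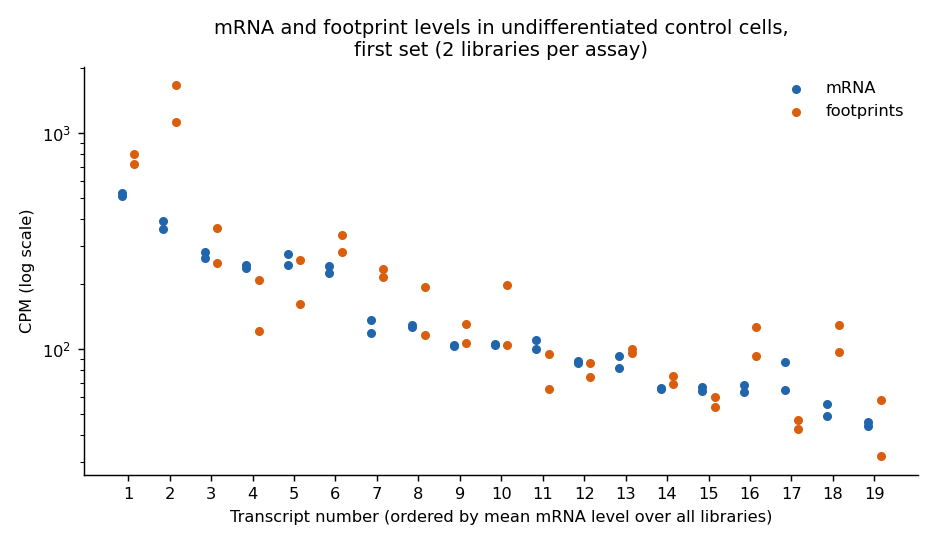
mRNA and footprint CPM (log scale) of transcripts 1 to 19 in undifferentiated control cells of the first set, with 1 point per library. Footprints lay above mRNA for transcript 2 in both replicates (1126 and 1672 against 361 and 394 CPM) and below it for transcript 17 (47.2 and 42.8 against 65.1 and 87.3 CPM).

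Transcript 2 (uc004cvf.3) had the highest ratio in those cells, at 1.64 and 2.09. Its ratio stayed between 1.09 and 2.27 in all 23 pairs of libraries. Transcript 18 came next, with ratios of 0.81 and 1.39, followed by transcript 7 (uc002sow.1) at 0.87 and 0.79, which did not differ from transcript 18 beyond the spread of the replicates. The lowest were transcript 17, at -0.45 and -1.01, and transcript 4 (uc031shq.1), at -0.19 and -1.01. These overlapped each other, and neither overlapped transcripts 2, 7 or 18.

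The first question was how ribosome occupancy of these transcripts changed along conversion in control cells. By ND6 the 19 had split. Transcripts 1, 3, 4, 5, 8 and 10 fell in TE, with log2 changes from -2.51 to -1.72, while none rose. The other 13 showed TE changes between -0.79 and 0.42, with a median of 0.11, and did not pass the test. The spread among members widened accordingly, from an SD of the ratio of 0.52 and 0.78 at hES to 1.33 and 1.31 at ND6. The other 13 include transcripts 16 to 19, whose mean mRNA level lay below the level limit at ND3. The rule favoured an mRNA fall from hES in these, and with it a higher TE change. Their TE changes are a description only, as are medians and SDs that include them, here and below.

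Transcript 4 had the largest fall in TE. Its mRNA level was 239 and 247 CPM at hES and 365 and 343 CPM at ND6, while its footprints went from 209 and 122 CPM to 47.5 and 40.2 CPM. mRNA was thus higher in both ND6 libraries and footprints were lower in both, with no overlap between the stages. The log2 ratio started from -0.19 and -1.01 at hES. It stood at -1.43 and -1.23 by ND1, at -2.02 and -1.74 by ND3, and had reached -2.93 and -3.08 by ND6. The fitted TE change to ND6 was -2.51 ± 0.37 (log2, SE; edgeR adjusted p = 0.000212).

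Transcript 3 (uc004erx.2) showed the same opposition. Its mRNA was at 266 and 281 CPM at hES and 444 and 432 CPM at ND6. Its footprints were at 366 and 251 CPM at hES and 136 and 104 CPM at ND6. Neither assay overlapped between these stages, and TE fell by 2.08 ± 0.35 on the log2 scale (edgeR adjusted p = 0.000829).

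Transcript 1, with the highest mRNA level of the 19, had 803 and 722 CPM of footprints at hES against 223 and 254 CPM at ND6. Its mRNA was 530 and 511 CPM at hES and 602 and 563 CPM at ND6, a change that did not pass the test. Here the footprints separated the stages widely and the mRNA by little. Its TE fell by 1.88 ± 0.30 (log2; edgeR adjusted p = 0.000492).

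Transcripts 5 and 8 completed this pattern. The ratio of transcript 5 was 0.07 and -0.78 at hES and -2.31 and -2.36 at ND6, and its TE fell by 2.07 ± 0.38 (log2; edgeR adjusted p = 0.00175). That of transcript 8 was 0.61 and -0.16 at hES and -1.54 and -1.80 at ND6, and its TE fell by 1.99 ± 0.35 (log2; edgeR adjusted p = 0.00115). In neither did the stages overlap. Transcript 10 had ratios of 0.91 and 0.01 at hES and -1.10 and -1.16 at ND6, and a TE change of -1.72 ± 0.39 (edgeR adjusted p = 0.0159). Its call was the only one of the 6 that any of 14 alternative settings removed. It was lost when only the compared groups were fitted, without TMM factors, or without any 1 of 5 libraries. Without footprint replicate 1 at hES its TE change was -1.14.

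Beside these 6 of 19 members called lower in TE at ND6, 1.25% of all 17680 rows were called lower (221 rows) and 0.0509% higher (9 rows). Among rows over the same mRNA limit, 28 of 150 with length values of 52 to 100 (18.7%) and 177 of 4414 longer ones (4.01%) were called lower. The median TE change was -0.20 over the 19 and 0.04 over all rows. Without TMM factors the median over all rows moved up by 0.42 to 0.46 and that of the 19 became 0.23. The sign of the members' median thus rests on the scaling, while it lay below all rows with either scaling. It was -0.61 without shControl footprint replicate 1 at ND6 and 0.01 without replicate 2. With a level limit of 10 CPM it was 0.07, which is not below all rows. All 6 lay among the 10 members with the highest mRNA level, an order by CPM that is not scaled to length. Their length values ran from 32 to 51, against 25 to 51 in the other 13.

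**Figure D2:**
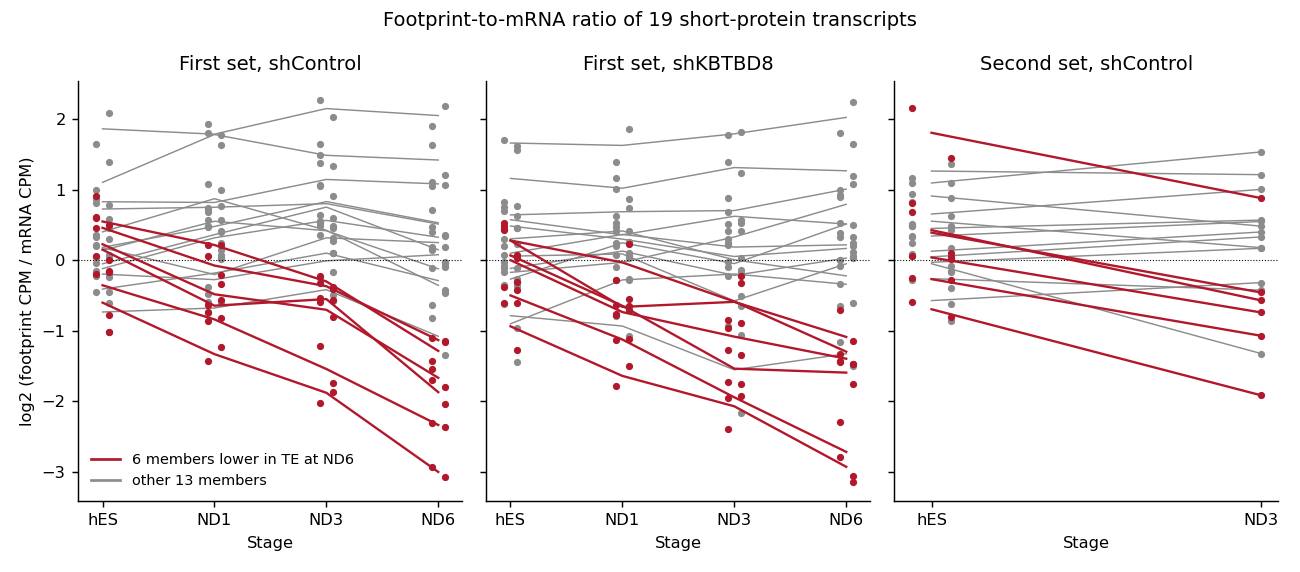
Log2 ratio of footprint CPM to mRNA CPM by stage, in panels for shControl and shKBTBD8 of the first set and shControl of the second, with 1 point per pair of libraries and lines joining the means. The 6 transcripts called lower in TE at ND6 in control cells (red) lay between -3.08 and -1.10 there, and the other 13 (grey) between -1.34 and 2.19.

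In control cells of the first set no member was called in TE at the earlier stages. At ND1 the edgeR test called 0 of 19 members in TE (3 had an unadjusted p under 0.05), against 0.00566% of all rows, and DESeq2 also called 0. At ND3 edgeR called 0 of 19 (6 with an unadjusted p under 0.05), against 0.0509% of all rows, and DESeq2 called 1. At ND3 the TE changes of the 6 transcripts ran from -1.34 in transcript 4 to -0.71 in transcript 3. They are set against the same hES libraries as the ND6 changes that picked out the 6, so they are no separate evidence. The median of the 19 at ND3 was 0.30, but -0.35 without footprint replicate 1 of shControl at ND3 and 0.70 without replicate 2.

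The mRNA levels of the 19 moved in both directions. At ND1, 2 were called higher (transcripts 9 and 12, at 0.50 and 0.51) and 2 lower (transcripts 17 and 18, at -0.87 and -0.66), against 13.4% of all tested rows called higher and 13.6% lower. At ND3, 8 were higher (transcripts 1, 3, 4, 7, 8, 9, 10 and 12) and 3 lower (2, 17 and 18), against 23.7% and 23.8%. At ND6, 5 were higher (3, 4, 7, 8 and 10) and 7 lower (2, 6, 11, 13, 16, 17 and 18), against 29.7% and 29.4%. Since so many rows changed, these counts are no result about the 19. The calls of transcripts 9 and 12 at ND1 were lost when any 1 of the 4 libraries was left out, and those of 17 and 18 without replicate 1 at ND1. At ND3, 1 was higher and 6 lower without replicate 1 at ND3, and 3 were higher and 3 lower without replicate 1 at hES. At ND6, 3 were higher and 4 lower without replicate 1 at hES.

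Transcript 2 had the largest mRNA change of the 19. Its mRNA was 361 and 394 CPM at hES, 395 and 433 CPM by ND1, 232 and 203 CPM by ND3, and finally 126 and 131 CPM. Levels at ND3 and ND6 overlapped neither hES nor each other. The fall to ND6 was -1.56 ± 0.13 (log2; edgeR adjusted p = 1.31e-07). Footprints followed, with 1126 and 1672 CPM at hES and 473 and 598 CPM at ND6, a change of -1.36 ± 0.27 (edgeR adjusted p = 0.001). Its TE change to ND6 was 0.13 and did not pass the test.

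Transcripts 17 and 18 were lower in mRNA at all later stages, but the rule favoured such a change. On the scale of the level limit, the mean mRNA level of transcript 18 over all libraries of a stage was 31.7 CPM at hES, 17.2 at ND1, 15.5 at ND3 and 10.1 at ND6, so it passed the limit of 20 only through hES. Transcript 17 was at 34.9, 22.2, 18.1 and 17.2 CPM at the same stages. Transcripts 16 and 19 likewise lay below the limit at ND3, and transcript 19 at ND6 as well. The mRNA changes of these 4 transcripts, and the calls of them counted above and for the second set, are therefore given as a description and support nothing. In control cells the mRNA of transcript 18 was 55.7 and 49.2 CPM at hES and 18.9 and 22.9 CPM at ND6, and that of transcript 17 was 65.1 and 87.3 CPM and then 37.3 and 32.4 CPM. In neither did hES and ND6 overlap.

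Transcript 7 rose in mRNA and in footprints at ND3. Its mRNA was 119 and 136 CPM at hES and 283 and 225 CPM at ND3, and its footprints were 217 and 235 CPM and then 738 and 423 CPM. Both assays were higher in every ND3 library, although the ND3 footprint libraries differed widely from each other. The changes were 0.99 ± 0.16 in mRNA (edgeR adjusted p = 0.000169) and 1.39 ± 0.27 in footprints (edgeR adjusted p = 0.00175). By ND6 its mRNA was still higher, at 189 and 160 CPM, with a change of 0.45 ± 0.16 (edgeR adjusted p = 0.0245), a call lost without replicate 1 of either stage and with rows not collapsed.

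Footprint levels alone showed a broad fall by ND6. At ND1 the edgeR test called 0 of 19 (6 with an unadjusted p under 0.05) against 1.59% of all rows, and DESeq2 called 2. At ND3 it called 3 higher (transcripts 7, 9 and 12) and 0 lower, against 3.3% and 3.74%. The calls of transcripts 9 and 12 were lost without either hES replicate or without replicate 1 at ND3. At ND6 it called 10 lower and 0 higher, against 8.78% of all rows called lower and 6.32% higher. The 10 were the 6 transcripts above together with transcripts 2, 6, 17 and 18. Without TMM factors the calls of transcripts 6, 10, 17 and 18 were lost. Those of transcripts 3, 8 and 10 were lost without shControl replicate 1 at hES, and also without replicate 2 at ND6. Transcripts 17 and 18 lay below the level limit at ND3 and ND6, and transcript 18 at ND1 as well. The rule thus favoured their fall from hES, and their footprint calls support nothing. The median over the 19 includes them, and transcript 19, which also lay below the limit at ND6. The median footprint change to ND6 was -0.998 over the 19 and 0.05 over all rows. Among rows over the same mRNA limit it was -0.65 over the 150 with length values of 52 to 100, of which 38.7% were called lower, and -0.23 over the 4414 longer ones, of which 21.5% were. Leaving out 1 footprint library at a time gave 5 to 7 calls; without shControl replicate 1 at hES, replicate 1 at ND6 or replicate 2 at ND6 the counts were 5, 6 and 5.

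**Figure D3:**
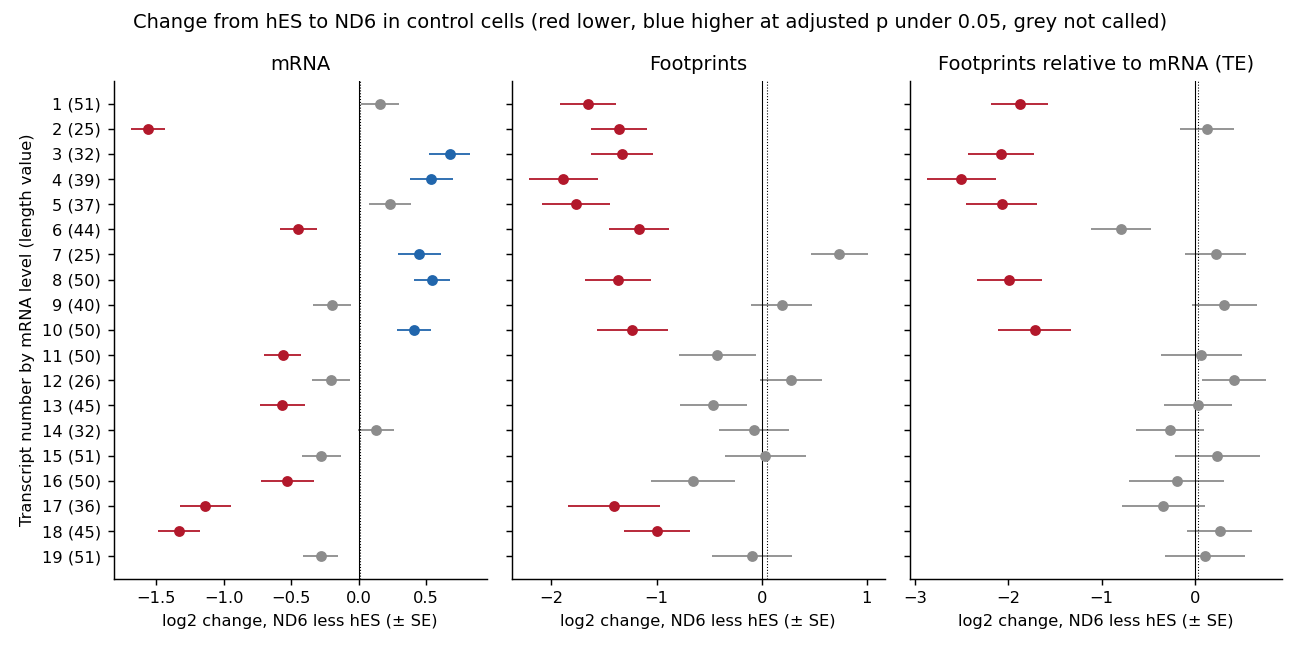
Log2 change from hES to ND6 in control cells (± SE) of each transcript for mRNA, footprints and TE, with the median of all rows as a dotted line. Transcripts 3, 4, 8 and 10 were called higher in mRNA and lower in footprints and TE, while transcripts 2, 6, 17 and 18 were called lower in both mRNA and footprints and not in TE.

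The libraries with shKBTBD8 gave the same stage contrast without sharing any sample with the control ones. The test used 1 estimate of the spread over all groups of the first set, so the control libraries entered its p-values. Replicates 1 and 2 at hES also differed alike in both hairpins. The median ratio of the 6 transcripts there was 0.53 and -0.16 with shControl, and 0.44 and -0.37 with shKBTBD8. At ND6 transcripts 1, 3, 4, 5 and 8 were called lower in TE and 0 higher, against 0.911% of all rows called lower and 0.0396% higher. Transcript 4 had ratios of -0.60 and -1.27 at hES and -2.80 and -3.07 at ND6, and its TE change was -1.99 ± 0.37 (edgeR adjusted p = 0.00425). Transcript 5 had ratios of -0.39 and -0.61 and then -2.30 and -3.14, and its TE change was -2.17 ± 0.38 (edgeR adjusted p = 0.00328). The stages did not overlap in either. Transcript 10 had a TE change of -1.34 and did not pass the test. The calls of the other 5 were all lost when only the compared groups were fitted. These 5 calls depended on single libraries: 0 remained without footprint replicate 2 of shKBTBD8 at ND6, 2 without mRNA replicate 1 at hES and 3 without footprint replicate 1 at hES.

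At ND3 in shKBTBD8 cells transcript 8 alone was called lower in TE and 0 higher, against 0.532% and 0.0226% of all rows. Its ratio was 0.45 and -0.31 at hES and -1.73 and -1.34 at ND3, with no overlap, and its TE change was -1.69 ± 0.35 (edgeR adjusted p = 0.0223). With the replicate number as a block 2 members were called, and the call of transcript 8 was lost without any 1 of 6 libraries. Without footprint replicate 1 of shKBTBD8 at ND3, 3 members were called. At ND1 the edgeR test called 0 of 19 (3 with an unadjusted p under 0.05), against 0.00566% of all rows, and DESeq2 called 0.

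In the second set, the change from hES to ND3 was estimated over the 3 hairpins together. The same 6 transcripts were called lower in TE and 0 higher, against 1.33% of all 17516 rows called lower and 0.137% higher. Transcript 4 had ratios of -0.59 and -0.80 in control cells at hES, -0.70 with shKBTBD8 and -0.83 with shTCOF1. At ND3 its ratios were -1.92, -2.23 and -1.92 in the same order of hairpins, below every hES value. Its TE change was -1.26 ± 0.14 (edgeR adjusted p = 0.00115). The others ranged from -1.14 ± 0.21 in transcript 10 (edgeR adjusted p = 0.023) to -0.92 ± 0.12 in transcript 1 (edgeR adjusted p = 0.00238). Leaving out 1 of the 14 libraries at a time gave 2 to 6 calls, with transcripts 1 and 4 called each time. The call of transcript 3 was lost without the shKBTBD8 mRNA library at hES or the shControl mRNA library at ND3. The calls of transcripts 5, 8 and 10 were each lost in most of these fits. That of transcript 8 was also lost without TMM factors and with rows not collapsed.

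Transcript 10 differed between the sets in level. Its mRNA at hES was 106 and 105 CPM in control cells of the first set and 61.8 and 63.4 CPM in the second, and its ratio was 0.91 and 0.01 against 2.16 and 1.45. The sets did not overlap. Levels of the 2 sets were scaled together within each assay, and the difference was not tested.

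In the mRNA of the second set, 1 member (transcript 7) was higher and 8 were lower at ND3, against 30.7% and 31.2% of all rows. Transcript 7 had 139, 147, 165 and 130 CPM at hES and 240, 217 and 223 CPM at ND3, with no overlap, and a change of 0.64 ± 0.09 (edgeR adjusted p = 0.000407). Transcript 2 had 489, 481, 479 and 463 CPM at hES and 242, 240 and 313 CPM at ND3, again with no overlap, and a change of -0.88 ± 0.10 (edgeR adjusted p = 0.000121). In footprints 2 were higher (transcripts 7 and 9) and 10 lower, against 7.55% and 8.99% of all rows. The 10 lower were transcripts 1, 2, 3, 4, 5, 6, 8, 10, 17 and 18, which are the 10 called lower at ND6 in the first set. Without TMM factors transcript 6 was called in neither set. Transcripts 17 and 18 add nothing to this match, since the level limit used mRNA libraries of both sets and favoured a fall from hES in them. Without the shControl footprint library at ND3, 7 were called lower and 0 higher.

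The second question was whether depletion of KBTBD8 changed these transcripts. TE was called for 0 of 19 members at any of the 4 stages by edgeR and by DESeq2, against 0% of all rows. Unadjusted p values under 0.05 were found for 0 members at hES, 1 at ND1, 5 at ND3, and at ND6 the number was 0. At ND3 the TE change was nevertheless negative in 19 of 19 members, from -1.07 in transcript 17 to -0.12 in transcript 13, with a median of -0.51. The median was -0.12 over all rows, -0.39 over the 150 rows with length values of 52 to 100 and -0.06 over the 4414 longer ones. The members' median was -0.09 without footprint replicate 1 of shControl at ND3 and -0.86 without replicate 2, so the control footprint libraries at ND3 decide its size. A negative sign was not particular to ND3. At hES the TE change was negative in 17 of 19 members (median -0.18, against -0.03 over all rows). At ND1 it was negative in 17 of 19 (median -0.21, against -0.01) and at ND6 in 12 of 19 (median -0.04, against -0.03). The members share the same libraries, so their signs are not independent.

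In footprints at ND3, 18 of 19 members had a negative change, with a median of -0.65 against -0.06 over all rows. The median was -0.50 over the 150 rows with length values of 52 to 100 and 0.02 over the 4414 longer ones. Only transcript 14 was called lower, and 0 were higher, against 0.114% and 0.191% of all rows. It had 130 and 83.4 CPM in control cells and 44.6 and 25.3 CPM with shKBTBD8, with no overlap, a change of -1.61 ± 0.34 (edgeR adjusted p = 0.0322). The call was lost when only the compared groups were fitted, without shControl replicate 1 (-1.25) and without shKBTBD8 replicate 2 (-1.28). The median of the 19 was -0.11 without shControl replicate 1. At hES, ND1 and ND6 edgeR and DESeq2 called 0 of 19 in footprints (0 with an unadjusted p under 0.05 at each), against 0%, 0.0119% and 0.0119% of all rows.

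**Figure D4:**
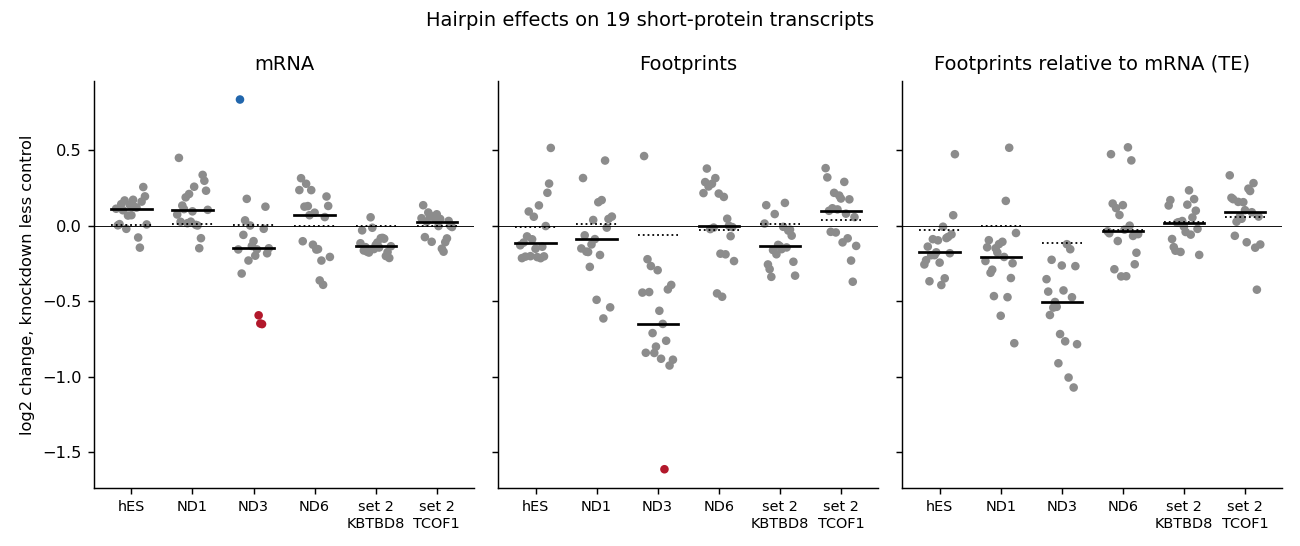
Log2 change with knockdown less control for the 19 transcripts, in panels for mRNA, footprints and TE, by stage in the first set and for shKBTBD8 and shTCOF1 in the second, with solid bars at their median and dotted bars at that of all rows. At ND3 of the first set all 19 TE changes lay below 0, between -1.07 and -0.12, and in the second set those of shKBTBD8 lay between -0.19 and 0.23.

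mRNA of the members differed between hairpins at ND3, where 1 was called higher and 3 lower with shKBTBD8, against 4.51% and 3.92% of all rows. Transcript 2 was the one called higher. It had 232 and 203 CPM in control cells and 375 and 407 CPM with shKBTBD8, with no overlap, a change of 0.83 ± 0.12 (edgeR adjusted p = 0.000678) that was called in every alternative. At hES the values were 361 and 394 CPM against 352 and 402 CPM, which overlapped. At ND1 they were 395 and 433 CPM against 554 and 566 CPM, a change of 0.45 that did not pass the edgeR test. DESeq2 and the fit with the replicate block each called 1 member at ND1. At ND6 they were 126 and 131 CPM against 160 and 159 CPM, a change of 0.31 that did not pass. The effect at ND3 exceeded that at hES by 0.83 ± 0.18 (edgeR adjusted p = 0.0269), a comparison added after the data were seen in which 1.56% of all rows were called; leaving out any 1 of 5 libraries ended that call.

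Footprints of transcript 2 at ND3 were 1122 and 831 CPM in control cells and 1283 and 1432 CPM with shKBTBD8. The groups did not overlap, but the change of 0.46 did not pass the test, and its TE change was -0.44. In the second set its mRNA at ND3 was 242 CPM with shControl, 240 CPM with shKBTBD8 and 313 CPM with shTCOF1, so the shKBTBD8 library was not above the control one.

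**Figure D5:**
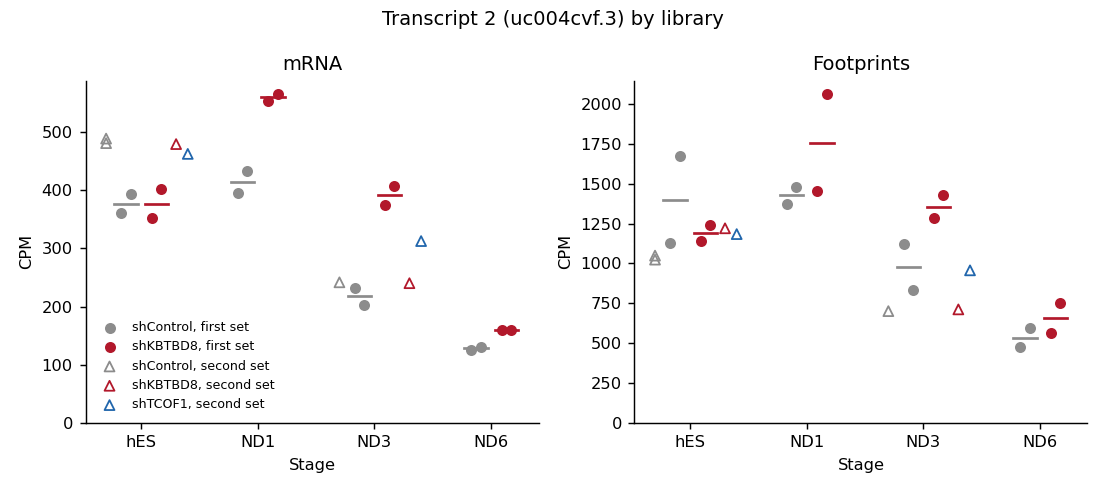
mRNA (left) and footprint (right) CPM of transcript 2 by stage and hairpin, with 1 point per library, bars at the means of the first set and open symbols for the second set. In the first set the shKBTBD8 libraries lay above the control ones in mRNA at ND1, ND3 and ND6, and the levels of both were lowest at ND6.

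Transcripts 13, 14 and 15 were called lower in mRNA at ND3 with shKBTBD8. Transcript 14 had 88.7 and 69.0 CPM in control cells and 47.9 and 53.5 CPM with the hairpin, a change of -0.65 ± 0.13 (edgeR adjusted p = 0.006). Transcript 15 had 94.1 and 70.3 CPM against 53.2 and 52.3 CPM, a change of -0.65 ± 0.15 (edgeR adjusted p = 0.0116). Transcript 13 had 106 and 67.8 CPM against 58.2 and 57.8 CPM, a change of -0.59 ± 0.17 (edgeR adjusted p = 0.0379). The groups did not overlap, but replicate 1 of the control stood well above replicate 2 in all 3. Without it, or without replicate 1 of shKBTBD8, none of the 3 was called, and without replicate 2 of shKBTBD8 transcript 14 alone was. At hES, ND1 and ND6 edgeR called 0 of 19 in mRNA (0, 1 and 3 with an unadjusted p under 0.05), against 0.181%, 1.22% and 3.99% of all rows, and DESeq2 called 0, 1 and 0.

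In the second set, over both stages together, neither hairpin changed a member past the threshold. With shKBTBD8 edgeR and DESeq2 called 0 of 19 in TE, mRNA and footprints (0 with an unadjusted p under 0.05 in each), against 0%, 0.0227% and 0% of all rows. With shTCOF1 both called 0 of 19 in TE, mRNA and footprints (1, 0 and 2 with an unadjusted p under 0.05), against 0% of all rows in each. The median TE change of the 19 was 0.02 with shKBTBD8 and 0.09 with shTCOF1, against 0.03 and 0.05 over all rows. These values rest on 1 library per knockdown and stage, and they average hES with ND3, so they are not the ND3 contrast of the first set.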

How the data were processed

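The deposited values were whole-number counts per transcript row, made by the authors, with a length value per row in a unit the files do not state. Build hg19, TopHat2 2.0.7, Bowtie2 2.0.6 and CASAVA 1.8 are named in the submitters' processing notes. How reads were counted, with which strand setting and with what treatment of multiply mapped reads, is not given in the sources used here.

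To avoid counting reads more than once, rows averaging 10 counts or more were linked if at most 20 rows apart and if chi-square over the 46 libraries, divided by its degrees of freedom, was below 2. Each group was represented by its row of highest total. Counts on the 17680 rows were tested with edgeR 4.0.16 (quasi-likelihood F-test with TMM factors after filterByExpr; p adjusted by Benjamini-Hochberg over all rows, threshold 0.05) in R 4.3.3. In the first set each assay had 16 libraries in 8 groups. The second set had stage and hairpin as additive terms over 7 libraries. TE was the interaction of assay with group over both assays. CPM values use TMM-scaled totals, and ratios a prior count of 2. They are not per length, so the order of transcripts by level is an order of counts and not of abundance. The procedure was tested on simulated data.

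Alternatives were DESeq2 1.42.0, no filter, no TMM factors, rows not collapsed, only the compared groups, the replicate number as a block, and each library left out in turn. The members and lists were chosen with earlier results of these data known. The rule for naming took the 10 members with the highest mRNA level, the 5 lowest and 5 highest ratios, up to 5 called in each direction per comparison, and those at the limits. Without gene names at most 2 identifiers that rose and 2 that fell are printed, chosen after their values were seen, and the gene lists and cell type markers could not be applied.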

Additional observations from a re-analysis of the deposited data

Results flagged for a closer look

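The mRNA effect of shKBTBD8 on transcript 2 (uc004cvf.3) differed between stages. The effect at ND3 was larger than that at hES by 0.83 ± 0.18 (log2; edgeR adjusted p = 0.0269, a comparison added after the data were seen), against 1.56% of all rows called in either direction. At hES the libraries overlapped and at ND3 both shKBTBD8 libraries were higher. The difference was not called when only the compared groups were fitted (0.83) or without any 1 of 5 libraries, over which it ranged from 0.72 to 0.89. No group had enough samples for a check on single outlying samples.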

How the results depend on the processing

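Without a filter and with rows not collapsed, every count of called members stayed within 1.5 times its value in the report. DESeq2 called 2 members in footprints at ND1 and 1 in TE at ND3 in control cells, 2 in TE at ND3 in shKBTBD8 cells and 1 in mRNA with shKBTBD8 at ND1. Without TMM factors 1 was called in footprints at ND1 and 0 in TE at ND3 in shKBTBD8 cells. With only the compared groups the counts were 3 in footprints at ND1, 1 in footprints at ND3, 0 in TE at ND3 and 0 in TE at ND6 in shKBTBD8 cells, 0 in footprints with shKBTBD8 at ND3, and 5 in mRNA at ND3 (2 higher, 3 lower, so the balance reversed). The causes were not tested. The fit with the replicate block called 2 in TE at ND3 in shKBTBD8 cells and 1 in mRNA with shKBTBD8 at ND1, and moved no other count by over 1.5 times. No label states what same-numbered libraries share beyond the number. The differences between replicates 1 and 2 correlated between groups from -0.14 to 0.87 in mRNA (median 0.29 over 28 pairs). In footprints they correlated from -0.17 to 0.38. Some groups thus shared a deviation, and its source was not tested.

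With 1 library left out at a time, conversion in control cells gave 0 to 2 calls in mRNA at ND1, 6 to 14 in mRNA, 1 to 4 in footprints and 0 to 1 in TE at ND3, and 7 to 11 in mRNA, 5 to 7 in footprints and 5 to 6 in TE at ND6. In shKBTBD8 cells TE gave 0 to 3 at ND3 and 0 to 6 at ND6. With shKBTBD8 against control at ND3 the ranges were 1 to 5 in mRNA, 0 to 2 in footprints and 0 to 3 in TE. In the second set they were 7 to 10 in mRNA, 7 to 12 in footprints and 2 to 6 in TE. The balance of higher and lower calls reversed in mRNA at ND3 without control replicate 1 at ND3 (7 calls, 1 higher), in mRNA at ND6 without replicate 2 (9 calls, 5 higher), in mRNA with shKBTBD8 at ND3 without replicate 1 of either hairpin (1 call), and in the difference of that effect from hES without control replicate 2 at ND3 (2 calls, both lower). Of 971 values of single called members, 778 kept their call, 193 lost it and 0 changed sign.

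With a level limit of 10 CPM (35 members, 33 tested) or 50 CPM (11 members), 6 members were called lower in TE at ND6 and the median was 0.07 or -1.72, so the median depends on the limit. SEs of the members' TE changes to ND6 in control cells ran from 0.29 to 0.51, which limits what could be called among the smaller changes. The part of footprint depth in these SEs was not tested.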
